A study of Mus musculus with 45 samples.

Results

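Amino acids enter and leave cells through carriers of the solute carrier (SLC) families, and macrophages use them for protein synthesis, for glutathione and nitrogen metabolism and to signal nutrient supply to the kinase complex mTORC1. Some of these carriers are obligate exchangers made of a heavy chain, *Slc3a2* (4F2hc, CD98), and a light chain such as *Slc7a5* (LAT1), *Slc7a7* (y+LAT1) or *Slc7a8* (LAT2). Others, such as *Slc1a4* (ASCT1), *Slc1a5* (ASCT2), *Slc38a1* (SNAT1) and *Slc38a2* (SNAT2), carry small neutral amino acids or glutamine at the plasma membrane, whereas *Slc36a1* (PAT1) and *Slc38a9* sit on lysosomes. The 10 carriers named in this paragraph were listed by symbol, leaving out the dedicated carriers of arginine and cystine. All 10 were found, among 29307 genes with counts. *Slc7a7* also moves cationic amino acids, arginine among them.

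The RNA came from bone marrow-derived macrophages of C57BL/6N mice aged 6 to 10 weeks. The mice carried an engineered *Famin* (*Lacc1*) allele: p254I, the human non-risk form, p254V, the risk form, or p284R, the form that causes monogenic disease. All 3 groups thus carried an edited allele, and wild-type or *Famin*-deleted cells were not analysed here. Cells were grown for 6 days with 100 ng/mL M-CSF and then kept unstimulated for 24 h (M0) or polarized to M1 with LPS at 20 ng/mL plus IFN-γ at 50 ng/mL, or to M2 with IL-4 at 20 ng/mL. There were 5 libraries in each of 9 groups, 45 in all. Within a genotype, the M0, M1 and M2 libraries of 1 replicate number were treated as 3 cultures of 1 mouse, which gives 15 mice.

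Libraries held from 17239009 to 43740283 counts (median 27553642). All 8 macrophage markers were found at a mean of at least 1 CPM (counts scaled to library size, throughout with TMM, the trimmed mean of M values). All 8 M2 markers and 7 of the 8 M1 markers also reached this mean, while *Il12b* did not (0.0876 CPM in M1). Summed M1 markers were 11600 to 17500 CPM in M1 and at most 316 CPM elsewhere. *Gbp2* and *Cxcl9* were the largest parts in M1, with means of 8730 and 3130 CPM. Summed M2 markers were 5000 to 15000 CPM in M2 and at most 933 CPM elsewhere. Summed macrophage markers were 20000 to 33500 CPM in M0, 11300 to 15200 CPM in M1 and 9640 to 13900 CPM in M2. *Lyz2* was the largest part, with means of 17000, 5980 and 5320 CPM. Not all markers had lower means than in M0. In M1 *Fcgr1* (405 to 1210 CPM) and *Mertk* (192 to 205 CPM) were higher, and in M2 *Itgam* (304 to 362 CPM), while all others were lower. Dendritic cell markers reached 217 to 440 CPM in M1 against at most 14.3 CPM in M0 and M2, mainly through *Clec9a*, with a mean of 304 CPM in M1. *Xcr1* and *Dpp4* were also highest in M1 (8.31 and 7.77 CPM), and *Flt3* and *Siglech* had means of at most 0.425 CPM throughout. *Zbtb46* went the other way, with 0.619 CPM in M0, 0.316 CPM in M1 and 8.09 CPM in M2. Neutrophil markers ranged from 26.4 to 284 CPM in M0 and reached at most 135 CPM in M1 and 73.4 CPM in M2, and no other list of another cell type exceeded 92.2 CPM. The part of these markers in the results was not tested. The library of p254I mouse 4 in M0 stood apart on the first principal component of all genes (6.21, against -28.5 to -15.7 for the other M0 libraries), and so did its M2 library (-55.7, against -70.7 to -66.3). The counts below of carriers that differed between polarizations or genotypes were therefore also taken without this mouse. Those for other gene lists and for the replicate number were not. *Lacc1* itself had medians of 169, 171 and 119 CPM in M0 in p254I, p254V and p284R (159 to 257, 157 to 184 and 91.2 to 169 CPM). Its medians were 501, 542 and 396 CPM in M1 and 167, 168 and 122 CPM in M2. Averaged over polarizations, p284R differed from p254I by -0.42 on the log2 scale (adjusted p = 0.578, edgeR's F-test described below). The amino acid substitutions of *Lacc1* cannot be seen in gene counts.

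The sequences before the start sites of the carriers are shown because 3 of these genes carry a motif of a factor that answers to amino acid shortage or lysosomal stress. RefSeq (GRCm38.p6) gave a promoter for 7 of the 10 genes, and none was used for *Slc7a5*, *Slc1a5* and *Slc38a1*. Each stretch below is 150 bases, 5′ to 3′ on the strand of the gene, and ends at the end of a match at or across the start site. Capitals mark the matches.
*Slc1a4*, chr11:20332710-20332859, minus strand: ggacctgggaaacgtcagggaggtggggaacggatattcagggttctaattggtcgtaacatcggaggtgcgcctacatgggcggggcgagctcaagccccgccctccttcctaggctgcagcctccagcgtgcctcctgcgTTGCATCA
*Slc7a7*, chr14:54417938-54418087, minus strand: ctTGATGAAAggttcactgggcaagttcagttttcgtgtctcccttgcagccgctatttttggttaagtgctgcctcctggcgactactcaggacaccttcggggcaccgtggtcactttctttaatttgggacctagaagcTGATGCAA
*Slc36a1*, chr11:55204194-55204343, plus strand: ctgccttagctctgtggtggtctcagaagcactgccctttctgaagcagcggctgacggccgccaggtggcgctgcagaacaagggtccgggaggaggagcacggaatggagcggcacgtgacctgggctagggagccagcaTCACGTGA

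The motifs were searched on both strands of windows from 250 bases before to 50 bases after each start. The core of the composite element bound by ATF4 with C/EBP factors, TGATGNAA, was in the windows of *Slc1a4* (on the other strand, starting 4 bases before the start) and of *Slc7a7* (141 bases and 1 base before the most upstream of its 5 annotated starts). It was in 3.97% of the 32851 windows of all genes, and 4.51% of genes had it in 1 or more windows. The element of TFEB-type factors, TCACGTGA, was in the window of *Slc36a1*, 4 bases before the start, and in 0.974% of all windows (1.12% of genes). The STAT6 element TTCNNNNGAA (6.95% of windows, 8.01% of genes) was in none of the 7 genes' windows. These letters are a description of the windows, and occupancy by the factors was not measured.

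Levels were first compared between genes per length, as RPKM on the merged exons. In M0 the order was *Slc3a2* (91.0 ± 5.25, SD, n = 15 libraries), *Slc7a8* (45.6 ± 5.83), *Slc36a1* (20 ± 4.03), *Slc1a5* (10.9 ± 2.28), *Slc7a7* (8.18 ± 1.28), *Slc38a2* (6.998 ± 0.747), *Slc38a1* (6.26 ± 0.331), *Slc7a5* (2.75 ± 1.18), *Slc38a9* (2.60 ± 0.285) and *Slc1a4* (0.341 ± 0.179). The ranges over libraries did not overlap between the first 4 neighbours, from *Slc3a2* to *Slc1a5*. Neighbours from *Slc1a5* to *Slc38a1* overlapped, as did *Slc7a5* and *Slc38a9*, and *Slc1a4* was below all others in every M0 library. In M2 *Slc1a5* stood second (34.3 ± 4.82 RPKM), its range overlapping that of *Slc7a8* (26.9 ± 4.84), and *Slc7a7* was ninth (2.07 ± 0.261). The heavy chain led and *Slc1a4* was last in all 3 polarizations.

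Polarization was asked first, as the mean over the 3 genotypes. In M1, 6 of the 10 carriers rose against M0 and 3 fell, with *Slc1a4* rising 4.397-fold and *Slc1a5* falling to 0.647 of its M0 level. In M2, 4 rose and 4 fell, with *Slc1a5* rising 3.13-fold and *Slc7a7* falling to 0.253 of its M0 level. The test was edgeR's quasi-likelihood F-test in 1 fit of all 45 libraries and 12905 genes, and a gene was called when its p, adjusted by Benjamini-Hochberg over these genes, was under 0.05. Most genes were called in these comparisons. In M1 against M0 these were 77.3% of the genes tested (37% higher, 40.3% lower), in M2 against M0 76.4% (36.8% higher, 39.6% lower) and in M1 against M2 79.1% (39% higher, 40.1% lower), so a count of 8 or 9 carriers called in 10 is near the background. The median log2 difference of the carriers was 0.20 in M1 (all genes -0.03), -0.10 in M2 (all genes -0.03) and 0.29 between M1 and M2 (all genes -0.01). Both comparisons share the M0 libraries. Library totals without TMM moved the median of all genes to -0.13 in M1, and 3 carriers then rose and 3 fell. Without p254I mouse 4, 9 carriers were called in M1 against M0, 8 in M2 against M0 and 8 between M1 and M2. In whole cultures, fewer cells of a type and less RNA per cell cannot be told apart.

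**Figure D1:**
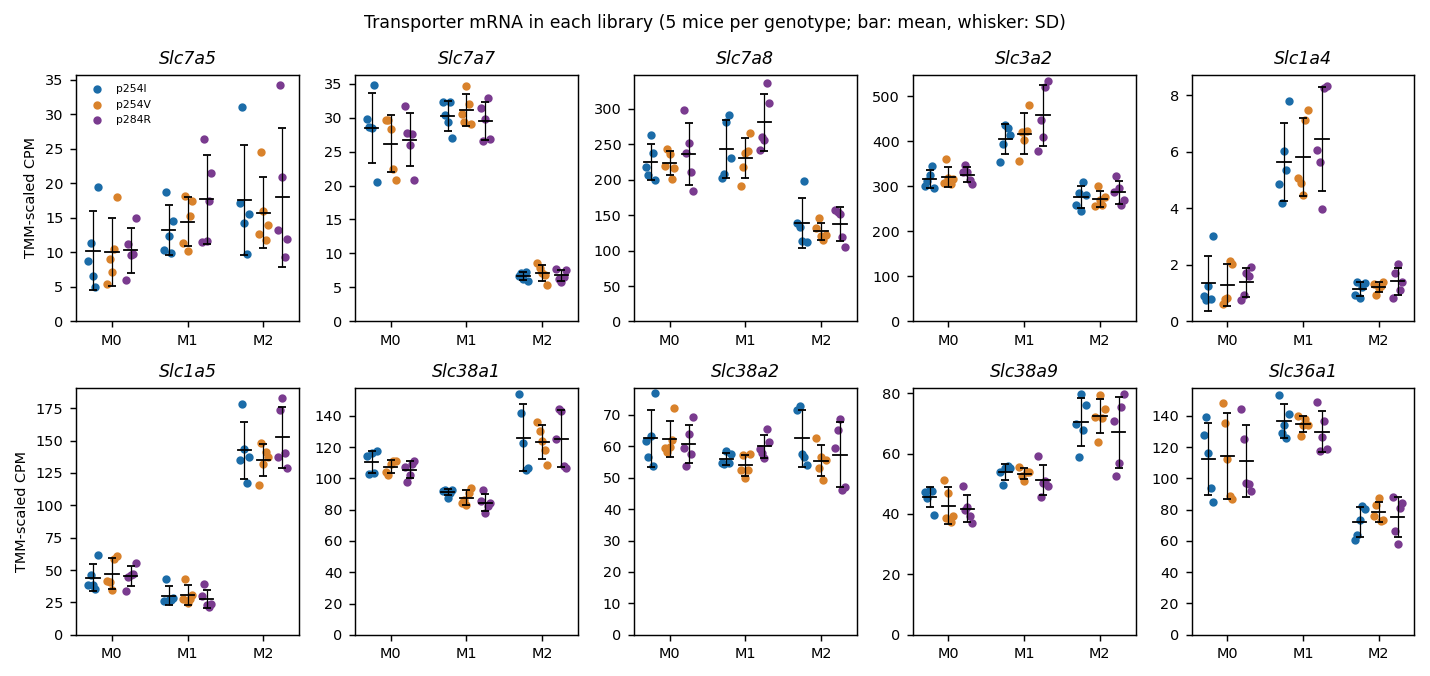
Each panel plots 1 carrier, with TMM-scaled CPM from 0 on the y axis and polarization on the x axis. Points are libraries in order of replicate number within a genotype (blue p254I, orange p254V, purple p284R), black bars are means and whiskers SD (n = 5). *Slc7a7* and *Slc1a5* in M2 and *Slc1a4* in M1 lie clear of the other polarizations, and the 3 colours lie over each other.

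The heavy chain *Slc3a2* brings the light chains to the membrane. It had 296, 316 and 360 CPM (lowest, median and highest of 15 libraries) in M0, 355, 422 and 534 CPM in M1 and 246, 276 and 322 CPM in M2. M1 libraries were the highest and did not overlap M2, while 1 or more libraries of M0 overlapped both. *Slc3a2* rose 1.33-fold in M1 (log2 difference 0.41, 95% interval 0.31 to 0.50, adjusted p = 3.26e-10, edgeR), in 15 of 15 mice. In M2 it fell to 0.867 (log2 -0.21, -0.30 to -0.11, adjusted p = 0.00015), also in 15 of 15 mice.

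*Slc7a7*, which exchanges cationic for neutral amino acids and sodium, had 20.6, 28.2 and 34.9 CPM in M0, 26.6, 30.3 and 34.7 CPM in M1 and 5.36, 6.90 and 8.53 CPM in M2. Every M2 library was below every library of M0 and M1. The fall in M2 against M0 was -1.98 on the log2 scale (95% interval -2.13 to -1.84, adjusted p = 1.62e-25), in 15 of 15 mice. M1 exceeded M2 by 2.14 on the same scale. In M1 the gene rose only 1.12-fold (adjusted p = 0.0266), in 11 of 15 mice, and the call was lost with library totals (adjusted p = 0.336), without p254V mouse 4 (0.0578) and without the 3 mice numbered 5 (0.054). Of its exonic bases, 7% lie over *Oxa1l* on the opposite strand, and the use of strand in counting is not given in the sources used here.

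*Slc7a8*, a carrier of neutral amino acids, was the most abundant light chain. It had 184, 220 and 299 CPM in M0, 191, 242 and 337 CPM in M1 and 106, 131 and 198 CPM in M2. M0 and M1 overlapped widely, and the difference of 0.14 on the log2 scale was not called (95% interval -0.02 to 0.29, adjusted p = 0.113). Without p284R mouse 1 it was called, at 0.20 (adjusted p = 0.0197). In M2 *Slc7a8* fell to 0.590 of M0 (log2 -0.76, -0.92 to -0.60, adjusted p = 2.51e-11), in 15 of 15 mice. Its highest M2 library, at 198 CPM, was that of p254I mouse 4, which stood apart over all genes.

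*Slc7a5* imports large neutral amino acids such as leucine and is widely induced in proliferating cells. It had 4.97, 9.64 and 19.5 CPM in M0, 9.92, 14.5 and 26.5 CPM in M1 and 9.37, 14.3 and 34.3 CPM in M2. All 3 ranges overlapped, and no carrier but *Slc38a2* had a smaller share of its variance with polarization (28.8%). It rose 1.47-fold in M1 (log2 0.55, 0.14 to 0.96, adjusted p = 0.0139), in 13 of 15 mice. In M2 it rose 1.67-fold (log2 0.74, 0.33 to 1.15, adjusted p = 0.00132), in 11 of 15. In the mice numbered 5, the log2 difference of M1 from M0 was -0.43, -0.05 and 0.52 (p254I, p254V and p284R). Without the 3 mice numbered 2, chosen after the values were seen, neither rise was called (log2 0.42, adjusted p = 0.0607 in M1 and log2 0.44, 0.0518 in M2), and with library totals the rise in M1 was not (0.0529). M1 and M2 were not called different (log2 -0.19, -0.59 to 0.22, adjusted p = 0.396).

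**Figure D2:**
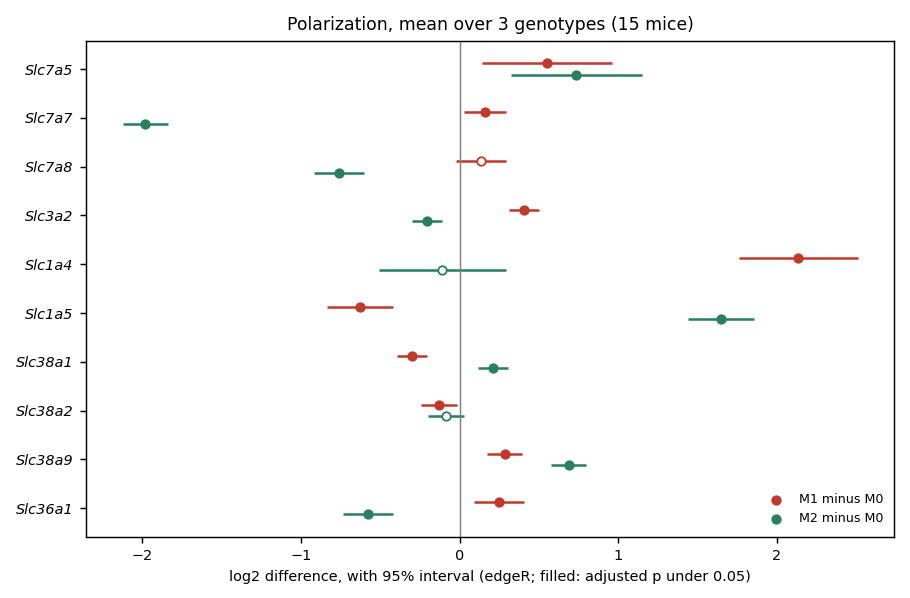
Log2 differences of each carrier from M0 (x axis) for M1 (red) and M2 (green), averaged over genotypes, with 95% intervals; filled points have an adjusted p under 0.05. *Slc1a4* in M1 (2.14), *Slc1a5* in M2 (1.65) and *Slc7a7* in M2 (-1.98) lie farthest from 0.

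The light chains that pair with *Slc3a2* were also set against each other per length, as shares of their summed RPKM. The sum was 60.1 ± 5.79 RPKM in M0, 66.1 ± 8.65 in M1 and 39.4 ± 6.56 in M2 (SD, n = 15), or 0.660, 0.547 and 0.497 of the *Slc3a2* level. *Slc7a8* made up 75.7% ± 2.58 in M0, 75.7% ± 2.61 in M1 and 68.4% ± 5.10 in M2. The share of *Slc7a7* was 13.6% ± 1.78 in M0, 14.0% ± 2.18 in M1 and 5.38% ± 1.05 in M2. *Slc7a5* held 4.70% ± 2.27, 6.18% ± 1.82 and 11.5% ± 3.62. Outside the 10 carriers, *Slc7a6* held 5.26%, 3.97% and 8.36%, and *Slc7a11*, the cystine carrier, 0.723%, 0.163% and 6.37%. The make-up of M0 and M1 was thus close, while in M2 *Slc7a5* exceeded *Slc7a7* in mean share. These shares are a description, with no test, and mRNA shares are not shares of protein.

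**Figure D3:**
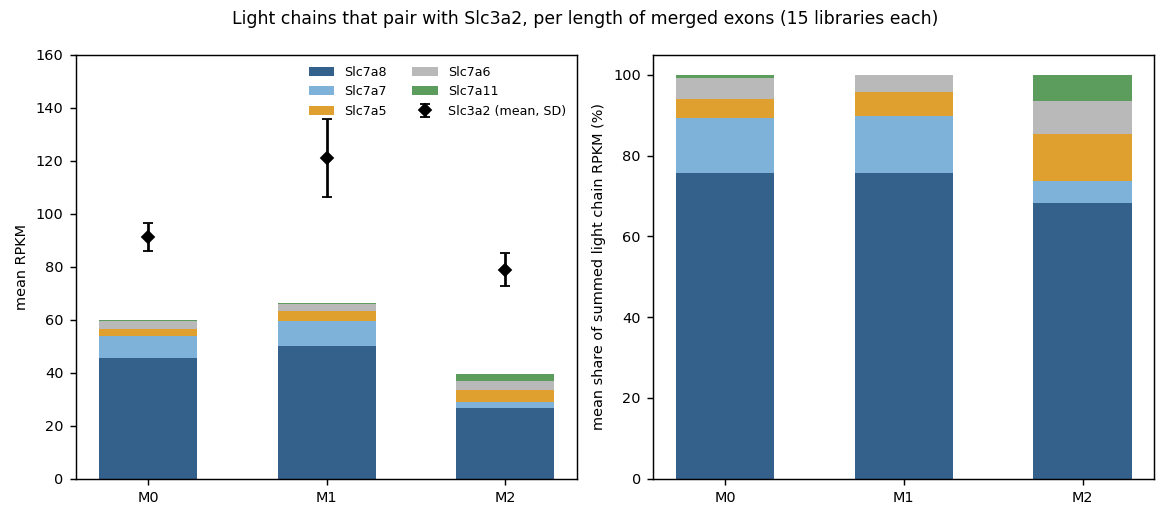
Left, mean RPKM of 5 light chains stacked (y axis, from 0) in M0, M1 and M2, with the *Slc3a2* level as black diamonds (mean and SD, n = 15). Right, the same as mean shares in percent. The pale blue part (*Slc7a7*) shrinks in M2 to 5.38%, and the orange part (*Slc7a5*) is 11.5%.

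The pair of the Slc1 family moved apart. *Slc1a5*, the sodium-dependent exchanger of glutamine, alanine, serine and cysteine, had 33.9, 44.9 and 61.5 CPM in M0, 21.8, 27.7 and 43.4 CPM in M1 and 116, 138 and 183 CPM in M2. Every M2 library was above every other, and M0 and M1 overlapped. It rose 3.13-fold in M2 (log2 1.65, 1.44 to 1.86, adjusted p = 1.52e-17), in 15 of 15 mice, and fell in M1 (log2 -0.63, -0.84 to -0.42, adjusted p = 7.54e-07), in 14 of 15 mice.

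*Slc1a4*, its relative that exchanges alanine, serine, cysteine and threonine, was the scarcest carrier, with 18 to 98 counts per library in M0. It had 0.624, 0.922 and 3.02 CPM in M0, 3.96, 5.65 and 8.33 CPM in M1 and 0.825, 1.26 and 2.02 CPM in M2. All M1 libraries were above all others. The rise in M1 was 2.14 on the log2 scale (95% interval 1.76 to 2.51, adjusted p = 1.44e-13), in 15 of 15 mice. M2 and M0 were not called different (log2 -0.11, -0.51 to 0.29, adjusted p = 0.62), and the sign of that value changed with limma-voom and without p254I mouse 5. The ratio of *Slc1a5* to *Slc1a4*, per length, had a median of 40.3 in M0 (19.2 to 62.2), 4.72 in M1 (2.49 to 9.72) and 105 in M2 (82.4 to 161), with no overlap between the 3.

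The system A carriers *Slc38a1* and *Slc38a2* take up small neutral amino acids with sodium. *Slc38a1* had 97.8, 109 and 117 CPM in M0, 78.1, 87.8 and 94.1 CPM in M1 and 105, 124 and 154 CPM in M2. M1 lay below M0 in every library. It fell in M1 (log2 -0.30, -0.39 to -0.20, adjusted p = 3.82e-07) in 15 of 15 mice and rose in M2 (log2 0.21, 0.12 to 0.31, adjusted p = 9.9e-05) in 11 of 15.

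*Slc38a2*, the member of this pair that cells raise on amino acid shortage, had 53.7, 59.9 and 77.1 CPM in M0, 49.9, 57.3 and 65.4 CPM in M1 and 46.2, 56.6 and 72.8 CPM in M2. The 3 ranges overlapped almost wholly. A fall of -0.13 in M1 was called (95% interval -0.24 to -0.02, adjusted p = 0.0363), but not with the mouse as a fixed block (adjusted p = 0.0593), nor without the 3 mice numbered 5 (0.253), nor when any of 11 single mice was left out (up to 0.111). M2 was not called (log2 -0.08, -0.20 to 0.03, adjusted p = 0.17). With library totals M2 was called, at -0.16 (adjusted p = 0.0168), and without the 3 mice numbered 2 at -0.15 (adjusted p = 0.0301). The per-length ratio of *Slc38a1* to *Slc38a2* was 0.901 ± 0.0657 in M0, 0.799 ± 0.0722 in M1 and 1.10 ± 0.0877 in M2.

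On the lysosome, *Slc38a9* reports luminal arginine to the Rag GTPases of mTORC1, and *Slc36a1* exports small amino acids with protons. *Slc38a9* had 37.0, 42.2 and 51.2 CPM in M0, 45.6, 53.9 and 59.3 CPM in M1 and 52.5, 71.8 and 79.6 CPM in M2. M2 was above M0 in every library and M1 lay between, overlapping both. It rose in M1 (log2 0.28, 0.17 to 0.40, adjusted p = 1.31e-05) and in M2 (log2 0.69, 0.58 to 0.80, adjusted p = 1.74e-14), each in 15 of 15 mice. Only *Slc38a9* and *Slc7a5* were called higher in both.

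*Slc36a1* had 84.9, 112 and 148 CPM in M0, 117, 134 and 153 CPM in M1 and 58.0, 76.2 and 88.0 CPM in M2. M1 did not overlap M2, and M0 spanned the gap between them and overlapped both. It rose in M1 (log2 0.25, 0.09 to 0.41, adjusted p = 0.00435; 0.0539 with library totals) in 11 of 15 mice and fell in M2 (log2 -0.58, -0.74 to -0.42, adjusted p = 2.16e-08) in 15 of 15. The per-length ratio of *Slc36a1* to *Slc38a9* was 7.69 ± 1.23 in M0, 7.52 ± 0.407 in M1 and 3.22 ± 0.365 in M2, so the M2 libraries stood apart in the balance of the 2 lysosomal carriers.

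The *Famin* genotype was asked next, as the mean over M0, M1 and M2 and within each. None of the 10 carriers was called in any of the 9 comparisons within a polarization or the 3 averaged ones, by edgeR, DESeq2 or limma-voom. Few genes were called at all by edgeR. For p284R against p254I these were 0.0155% averaged, 0% in M0, 0.263% in M1 and 0.00775% in M2. The 34 genes behind the value in M1 became 0 without p284R mouse 5, 1 without mouse 3 or 4 of p284R and 109 without its mouse 2. They became 7 without p254I mouse 4, and 1 when the fit held only the libraries compared. For p254V against p254I they were 0.0155% averaged and 0% in each polarization. For p284R against p254V they were 0% averaged, 0% in M0 and M2 and 0.0775% in M1. Averaged log2 differences of the carriers ran from -0.09 to 0.18 for p284R against p254I, from -0.08 to 0.04 for p254V against p254I and from -0.07 to 0.17 for p284R against p254V.

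At an unadjusted p under 0.05, 0 carriers passed with edgeR in the averaged comparisons with p254I and 1 in that of p284R with p254V, *Slc7a8* (log2 0.16, 95% interval 0.004 to 0.32, adjusted p = 0.948, edgeR). With the mouse as a random block its interval was -0.04 to 0.34 and included 0. Within M1, *Slc7a8* had 242, 261, 256, 337 and 308 CPM in p284R mice 1 to 5 and 191, 218, 237, 241 and 266 CPM in p254V mice 1 to 5 (log2 0.28, adjusted p = 0.788, edgeR). *Slc3a2* in M1 had 380, 447, 410, 521 and 534 CPM in p284R mice 1 to 5, against 355, 393, 436, 431 and 414 CPM in p254I (log2 0.18, 0.01 to 0.34, adjusted p = 0.693, edgeR). These 2 were the carriers with an unadjusted p under 0.05 within a polarization. Mice 4 and 5 of p284R were the 2 highest of all M1 libraries for both genes, and mice 1 to 3 lay within the range of the other genotypes. Set against the same-numbered mouse in M1, p284R was higher than p254V in 5 of 5 pairs and than p254I in 4 of 5, for either gene. *Slc7a5* and *Slc38a2* were also higher in p284R than in p254V in 5 of 5 pairs, and *Slc38a1* was lower in p284R than in p254I in 5 of 5. For *Slc38a1*, 1 of these pairs was 92.4 against 92.5 CPM. Over all carriers and all comparisons within a polarization, these were the only cases in which 5 of 5 pairs agreed. Among so many comparisons some such cases arise without any effect of genotype, and the share over all genes was not taken. With the number as a block the adjusted p was 0.51 for *Slc7a8* against p254V and 0.382 for *Slc3a2* against p254I (edgeR). The interaction of genotype with polarization was called for 0 carriers and 0% of genes in each of the 4 contrasts (p284R or p254V against p254I, with M1 or M2 against M0), and 0 carriers had an unadjusted p under 0.05.

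How small a genotype difference could be seen varied with the carrier. The 95% interval of the averaged difference of p284R from p254I was -0.003 to 0.19 on the log2 scale for *Slc3a2*, -0.16 to 0.03 for *Slc38a1*, -0.14 to 0.09 for *Slc38a2* and -0.20 to 0.02 for *Slc38a9*. For *Slc7a5* it was -0.26 to 0.56 and for *Slc1a4* -0.20 to 0.57, the widest of the 10. *Slc36a1* (-0.17 to 0.15), *Slc1a5* (-0.20 to 0.21), *Slc7a7* (-0.17 to 0.10) and *Slc7a8* (-0.07 to 0.25) were between these. The widest interval for p254V against p254I was that of *Slc7a5*, from -0.42 to 0.39. These intervals treat the 3 cultures of a mouse as independent. With the mouse as a random block (limma-voom) that of p284R against p254I was -0.33 to 0.60 for *Slc7a5*, -0.24 to 0.67 for *Slc1a4* and -0.03 to 0.21 for *Slc3a2*. With counts summed per mouse it was -0.41 to 0.65, -0.32 to 0.52 and -0.04 to 0.20, so a 1.57-fold difference in *Slc7a5* lay within it.

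**Figure D4:**
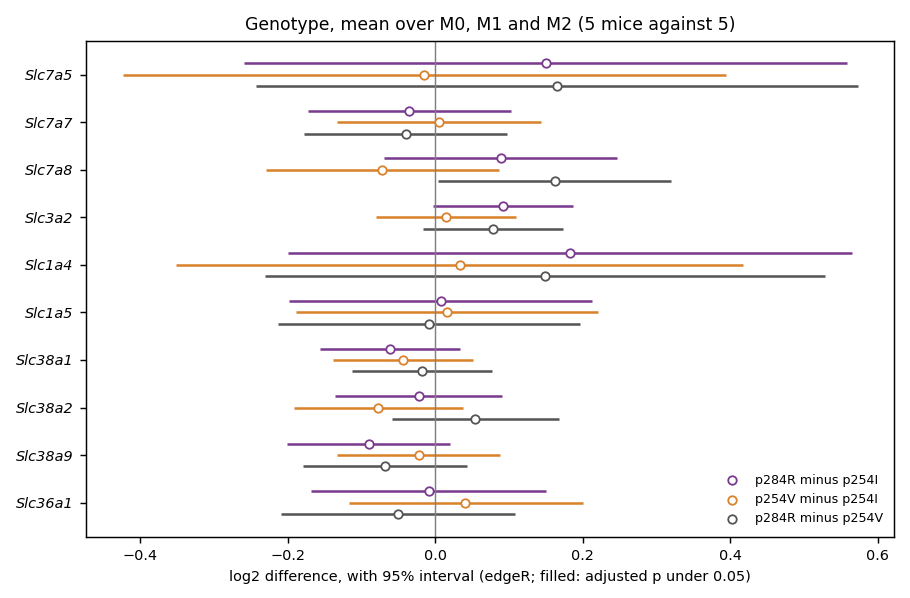
Log2 differences between genotypes (x axis), averaged over M0, M1 and M2, with 95% intervals from the fit without the mouse, for p284R minus p254I (purple), p254V minus p254I (orange) and p284R minus p254V (grey). All points are open (not called), and the intervals of *Slc7a5* and *Slc1a4* are the widest.

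A larger part of the spread in some carriers went with the replicate number than with the genotype. Over the 45 libraries, genotype held between 0.00448% (*Slc1a5*) and 3.59% (*Slc38a2*) of the variance of log2 CPM. Its combination with polarization held between 0.0519% (*Slc1a4*) and 8.77% (*Slc38a2*). The number and its combination with polarization held 34.1% and 21.8% in *Slc7a5*, 9.16% and 43.1% in *Slc38a2* and 2.89% and 14.8% in *Slc38a1*. In *Slc7a8* the genotype alone held 1.89% and the number alone 1.78%. The number has 5 levels and the genotype 3, so by that alone the number can hold more of the variance. The number recurs in all 3 genotypes, and what it stands for is not given in the sources used here. A test of the number with genotype in the model (edgeR's F-test), chosen after the values were seen, called 7 of the 10 carriers in M0, 6 in M1 and 2 in M2. Of all genes tested it called 48.3% in M0, 38.9% in M1 and 19.5% in M2. Without the mice numbered 5, 1 carrier and 28.3% of all genes were called in M0. Without those numbered 2, there were 2 carriers and 6.64% of genes in M1 and 0 carriers and 0.536% of genes in M2. Without the p254V libraries, 3, 3 and 0 carriers were called in M0, M1 and M2, with 12.5%, 14.4% and 0% of genes, so the calls over all genes dropped under the same settings.

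In M0 the mice numbered 5 stood apart. *Slc7a5* had 19.5, 18.0 and 14.98 CPM in the number 5 mice of p254I, p254V and p284R, against 4.97 to 11.4 CPM in the other 12 (adjusted p = 0.00757, edgeR, for the number). *Slc1a4* had 3.02, 2.03 and 1.93 CPM in these mice (adjusted p = 0.00839), with 2.14 CPM in p254V mouse 4 as the 1 higher value among the others of its group. In turn *Slc38a2* had 77.1, 72.3 and 69.2 CPM against 53.7 to 63.9 CPM in the others (0.00148). *Slc1a5* (0.0274) was also highest in number 5 in each genotype. *Slc7a7* was lowest there, at 20.6, 20.9 and 20.7 CPM (0.0126), and so was *Slc36a1*, at 84.9, 86.7 and 92.0 CPM (9.79e-05). *Slc38a9* was called as well (0.0215), with number 1 highest on average. The summed neutrophil markers moved with the number in M0, from 26.4 to 42.4 CPM in number 5 to 194 to 284 CPM in number 2, and so did the macrophage markers (20000 to 21900 CPM in number 5, 29400 to 33500 CPM in number 2). Their part in these differences was not tested.

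For *Slc7a5* and *Slc1a5* the mice numbered 2 were highest on average in M1 and M2. *Slc7a5* had 18.8, 18.1 and 26.5 CPM in the number 2 mice in M1 (adjusted p = 0.00067) and 31.0, 24.5 and 34.3 CPM in M2 (0.00259), the highest of each genotype. *Slc1a5* had 43.1, 43.4 and 39.4 CPM in the same mice in M1, against 21.8 to 30.5 CPM in the other 12 (1.88e-05). *Slc3a2* (0.00335), *Slc7a8* (0.00726), *Slc1a4* (0.00825) and *Slc36a1* (0.0391) were also called for the number in M1, with means highest in number 5, 4, 5 and 1 in this order, and *Slc38a1* (0.0184) was called in M2. *Slc38a1* in M2 had 107, 108 and 107 CPM in number 5 and 142, 131 and 144 CPM in number 2. In the mice numbered 2, neutrophil markers also had their highest mean sums, at 113 CPM in M1 (51.2 to 62.9 CPM for the other numbers) and 65.2 CPM in M2 (22.2 to 46.8 CPM). The dendritic cell markers did so too, at 425 CPM in M1 (265 to 351 CPM) and 13.3 CPM in M2 (6.09 to 10.4 CPM). Their sum was mainly *Clec9a* in M1 and mainly *Zbtb46* in M2, so it does not follow the same gene in both. The part of either list was not tested.

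The response of *Slc7a5* to IL-4 differed accordingly from mouse to mouse. The log2 difference of M2 from M0 within a mouse was 0.97, 1.22 and 1.15 in the mice numbered 1, 1.44, 1.43 and 1.62 in number 2 and 1.13, 1.16 and 1.12 in number 3 (p254I, p254V and p284R in this order). In number 4 it was 0.98, 0.16 and -0.06, and in number 5 -0.32, -0.38 and -0.33. *Slc38a2* gave 0.22, 0.08 and 0.001 in number 1 and -0.51, -0.38 and -0.56 in number 5. In *Slc1a4* the same difference was positive in 9 mice and negative in 6, 3 of them numbered 5. By contrast *Slc7a7* fell in M2 by between 1.44 and 2.25 on the log2 scale and *Slc1a5* rose by 1.16 to 2.02 over all 15 mice.

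**Figure D5:**
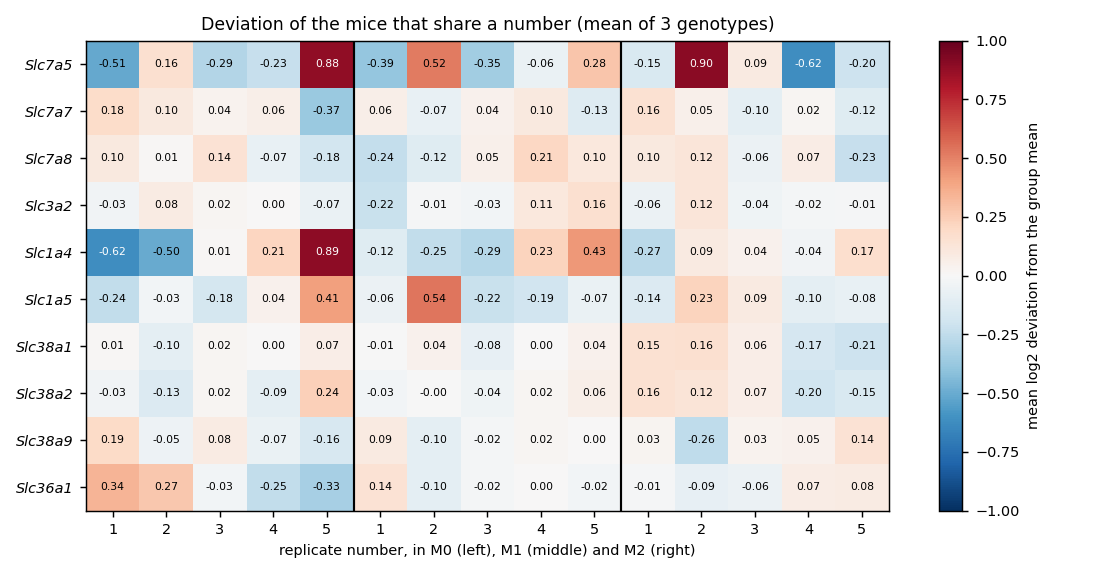
Mean log2 deviation of the 3 libraries that share a replicate number from their own group means, for each carrier (rows) and for numbers 1 to 5 in M0, M1 and M2 (columns). Red is above and blue below the group mean. *Slc7a5* reaches 0.88 for number 5 in M0 and 0.90 for number 2 in M2.

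The carriers also varied together within groups. After removal of the 9 group means, the correlation over 45 libraries was 0.76 between *Slc7a5* and *Slc1a5*, 0.75 between *Slc38a1* and *Slc38a2*, 0.74 between *Slc7a8* and *Slc3a2* and -0.76 between *Slc7a5* and *Slc38a9*. These libraries share mice, numbers and scaling, and the values are a description. Over all libraries with the groups left in, the pattern most like that of *Slc7a5* was that of the cationic carrier *Slc7a1* (r = 0.93), followed by *Hnrnpd* (0.91) and *Rcc1* (0.87). For *Slc1a4* the closest were *Soat2* (0.95), *Trib3* (0.95), a target of ATF4, and *Coq2* (0.94). *Slc1a5* was closest to *Atic* (0.98), the last enzyme of purine synthesis to IMP, *Nsmf* (0.98) and *Sept11* (0.98).

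For *Slc7a7* the closest genes were *Tifa*, *Icosl* and *Tsc22d4* (each r = 0.98), for *Slc7a8* *Filip1l*, *Kdr* and *Rab20* (0.92 to 0.93) and for *Slc3a2* *Bin1*, *Agfg1* and *Oasl1* (0.93 to 0.94). *Slc38a1* was closest to *Tm9sf3*, *Cdr2* and *Cx3cl1* (each 0.92), *Slc38a9* to *Tep1*, *Auh* and *Exo5* (0.91 to 0.92) and *Slc36a1* to *Rere*, *Pik3ip1* and *Fcho2* (0.94 to 0.95). *Slc38a2* had no close companion, with *Xpot*, the exportin of tRNA, at 0.71 and *Cstf2* (0.64) and *Kif2a* (0.64) next.

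Of 37 other genes from families that hold amino acid carriers, 18 passed the filter on low counts. Of these, 4 rose and 12 fell in M1 (median log2 difference -0.28), while 4 rose and 10 fell in M2 (median -0.28). Beside this and the following lists stand the shares over all genes tested. In M1, 37% of these were called higher and 40.3% lower, and in M2 36.8% and 39.6%. *Slc6a19*, a sodium-coupled carrier of neutral amino acids, went from 1.09 ± 0.277 to 32.8 ± 13.6 CPM in M1 (log2 4.89, adjusted p = 1.17e-21, edgeR). *Slc43a3*, a member of these families that is not itself an amino acid carrier, rose by 0.90 in M1. *Slc16a10*, the carrier of aromatic amino acids, fell by 1.203 in M1 and by 1.58 in M2, from 180 ± 24.9 CPM in M0. *Slc43a2* (LAT4), which releases large neutral amino acids, fell by 1.62 in M2, from 1182 ± 255 to 385 ± 55.01 CPM. *Slc15a3*, a lysosomal carrier of histidine and peptides, rose by 0.48 in M2. *Slc36a2*, a relative of *Slc36a1*, rose by 3.06 in M2, from 0.391 ± 0.205 to 3.41 ± 2.09 CPM. It was called lower in M1, at 0.0146 ± 0.0280 CPM, where it was barely detected. *Slc36a2* met the mean of 1 CPM needed to be named only through M2, so its rise there is partly set by the choice.

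Of 37 genes for amino acid sensing at the lysosome by mTORC1, 36 were tested, 13 rose and 14 fell in M1 (median -0.03), and 13 rose and 18 fell in M2 (median -0.10). *Rragd*, a Rag GTPase, fell by 2.80 in M1, from 32.0 ± 11.9 to 4.59 ± 0.714 CPM, and *Sesn1*, which inhibits the pathway, fell by 1.94. *Sesn3* rose by 0.88 and *Seh1l*, of GATOR2, by 0.60. In M2 *Rragb* fell by 2.01 and the arginine sensor *Castor1* by 1.88, both at no more than 3.96 CPM on average, while *Sec13* and *Tsc1* rose by 0.52 and 0.51.

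Of 20 genes of the amino acid response through ATF4, 18 were tested, 10 rose and 6 fell in M1 (median 0.42), and 5 rose and 5 fell in M2 (median -0.02). In M1 *Nupr1* rose by 1.997 and *Trib3* by 1.83, while *Gadd45a* fell by 2.01 and *Atf3* by 0.69. In M2 *Atf3* rose by 1.05, from 566 ± 63.7 to 1170 ± 86.6 CPM, and *Ppp1r15b* by 0.43, whereas *Gadd45a* fell by 1.61 and *Nupr1* by 0.87. Among the mice numbered 5 in M0, where *Slc7a5* and *Slc1a4* had their highest means, *Asns*, asparagine synthetase, had a mean of 27.2 CPM against 11.1 to 16.8 CPM for the other numbers (adjusted p = 0.00128, edgeR, chosen after its values were seen). *Atf4* had a mean of 153 CPM there, against 96.2 to 125 CPM (0.000928). For the number, 13 of these 18 genes were called in M0, where 48.3% of all genes tested were. Of the 13, 5 were highest in number 5, while others, such as *Ddit4*, *Eif2ak1* and *Vldlr*, were lowest there. Over all 18 genes, 5 were highest in number 5, 4 in each of numbers 1, 2 and 4, and 1 in number 3.

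Of 31 enzymes that use amino acids, 29 were tested, 15 rose and 9 fell in M1 (median 0.27), and 15 rose and 6 fell in M2 (median 0.17). *Glul*, glutamine synthetase, fell by 2.71 in M1 and by 1.52 in M2, from 502 ± 115 CPM in M0. *Kynu* rose by 5.94 in M1, from 1.09 ± 0.674 to 65.4 ± 18.1 CPM, and *Psat1*, of serine synthesis, by 1.92. *Il4i1*, which oxidizes aromatic amino acids, rose by 6.48 in M2, from 2.67 ± 0.583 to 238 ± 50.4 CPM. *Bcat1*, of branched-chain amino acids, rose by 3.06 in M2, from 0.306 ± 0.124 to 2.68 ± 1.80 CPM. It was called lower in M1, at 0.0859 ± 0.0599 CPM, where it was barely detected. *Bcat1* too met the mean of 1 CPM only through M2, so its rise there is partly set by the choice. *Kmo* fell by 1.36 in M2. No gene of the 4 lists was called in any genotype or interaction comparison.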

How the data were processed

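The labels describe the libraries as bone marrow-derived macrophages of separate mice, and groups and replicate numbers were taken from them. The authors deposited raw gene counts and a second table of CPM without TMM, which holds 11900 genes. All CPM values were whole reads within a tolerance of 0.01 and equalled the deposited counts. HISAT2, Trim Galore, FastQC and limma are named in the submitters' processing notes and the methods of the study, whereas the design text of the series names STAR and Cutadapt. The counter and its use of strand are not given in the sources used here. Libraries without unique molecular identifiers hold reads, not molecules.

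Counts were filtered with filterByExpr over the 9 groups (12905 genes kept), scaled by TMM (factors 0.9387 to 1.103) and fitted with edgeR 4.0.16 (R 4.3.3) by robust quasi-likelihood, with 1 coefficient per group and no block. Calls needed a p under 0.05 after Benjamini-Hochberg adjustment. Polarization contrasts averaged the genotypes and genotype contrasts averaged the polarizations or stood within 1. CPM per library used the same TMM factors, and RPKM divided them by merged exon length in GENCODE vM21 (GRCm38). DESeq2 1.42.0, limma-voom (limma 3.58.1), library totals, other filters, blocks and each mouse left out served as alternatives. Fits were tested on simulated data.

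The M0, M1 and M2 libraries of 1 number within a genotype were taken as 1 mouse from their labels. Their deviations from the group means correlated above 0.1 in 38 of 45 pairs (r -0.188 to 0.653, median 0.313). Between genotypes, deviations of same-numbered libraries correlated above 0.1 in 15 of 15 pairs in M0 (r 0.112 to 0.876, median 0.697). They did so in 15 of 15 in M1 (0.281 to 0.873, median 0.502) and 13 of 15 in M2 (-0.431 to 0.776, median 0.42). These medians were above that of 1 mouse, whose pairs differ in polarization. The number was taken to pair libraries in M0 and M1, where all pairs exceeded 0.1. The carriers and gene lists were chosen with earlier results of these data known. Besides the carriers, the text names for each gene list up to 2 called genes with the largest rise and up to 2 with the largest fall in M1 and in M2, at a mean of at least 1 CPM, and for each carrier the 3 genes with the highest Pearson correlation of log2 CPM. *Rraga* and *Cebpb* were not analysed here. Some promoter motifs that were searched are not reported here.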

Additional observations from a re-analysis of the deposited data

Results flagged for a closer look

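In 4 of 90 carrier and group combinations of 5 libraries, 1 library lay far from the other 4 by Dixon's test at the 95% level, and chance flags about 1 in 20 groups. *Slc3a2* had 359.9 CPM in p254V mouse 2 in M0, against 304.8 to 318.2 CPM in the other mice of its group. *Slc1a4* had 3.018 CPM in p254I mouse 5 in M0, against 0.7595 to 1.259 CPM. *Slc1a5* had 43.09 CPM in p254I mouse 2 in M1, against 25.74 to 28.39 CPM. *Slc38a2* had 72.32 CPM in p254V mouse 5 in M0, against 58.08 to 61.87 CPM.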

How the results depend on the processing

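Of 810 values of single carriers between polarizations under 27 alternatives, 780 kept their direction and their side of the threshold, and so did 727 of 780 between genotypes under 26. No alternative called a carrier between genotypes. Leaving out 1 mouse gave 7 to 9 carriers called in M1 against M0. The mouse as a fixed replicate block removed the call of *Slc38a2* in M1 (adjusted p = 0.0593) and changed no other call of a carrier. The replicate number as a block changed no carrier's call between genotypes, while the genes called between p284R and p254I in M1 went from 34 to 64, between p284R and p254V in M1 from 10 to 36, and averaged for p284R against p254I from 2 to 7. The last of these counts was 0 with counts summed per mouse, 1 when the mouse was a random block, and 2 to 19 with 1 mouse left out, and those within M1 were 7 and 0 with the random block. Recovered reads gave 4 genes averaged for p284R against p254I and 35 and 13 within M1.

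Uncalled values near 0 changed sign; the cause was not tested. *Slc1a4* in M2 against M0 was 0.003 (limma-voom), 0.009 (random replicate block of mice), 0.176 without the 3 mice numbered 5 and -0.186 to 0.062 with 1 mouse left out. *Slc38a2* was 0.03 in M2 against M0 without the mice numbered 5 and 0.009 in M1 against M2 without those numbered 2. For p254V against p254I, *Slc7a5* was 0.037 (limma-voom), 0.039 (random replicate block) and 0.006 (number block), *Slc7a7* -0.007, 0 (no filter) and -0.006 (random block), and *Slc1a5* -0.036 with counts summed per mouse. *Slc1a5* was -0.005 for p284R against p254I with library totals and 0.118 for p284R against p254V with counts summed per mouse. With 1 mouse left out, p284R against p254I ranged over -0.049 to 0.32 (*Slc7a5*), -0.091 to 0.011 (*Slc7a7*), -0.06 to 0.101 (*Slc1a5*) and -0.084 to 0.036 (*Slc36a1*). The ranges for p254V against p254I were -0.153 to 0.155 (*Slc7a5*), -0.048 to 0.068 (*Slc7a7*), -0.11 to 0.013 (*Slc7a8*), -0.013 to 0.048 (*Slc3a2*), -0.106 to 0.288 (*Slc1a4*), -0.042 to 0.108 (*Slc1a5*) and -0.053 to 0.006 (*Slc38a9*). For p284R against p254V they were -0.034 to 0.286 (*Slc7a5*) and -0.076 to 0.036 (*Slc1a5*).

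The carriers called for the replicate number, a test and alternatives chosen after seeing the data, were 1 to 8 in M0, 2 to 7 in M1 and 0 to 5 in M2 with 1 number left out. They were 3 in M0 without the p254V libraries (12.5% of all genes called), 2 in M0 without p284R (25.5%), 3 in M1 without p254V (14.4%), and 0 in M2 without p254I (0.402%) or without p254V (0%). Depth limited *Slc1a4* most, with 18 to 98 counts in M0.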
